A study of Rattus norvegicus with 6 samples.

Results

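Keratins are the intermediate filament proteins of epithelial cells, and they build filaments only as pairs of a type I and a type II protein. In the mammary gland, the inner luminal cells, which face the duct, carry the pairs formed by Krt7, Krt8, Krt18 and Krt19, whereas the outer basal (myoepithelial) cells carry Krt5 with Krt14, together with Krt15 and Krt17. Because of this division, keratins are widely used to tell luminal from basal breast tumors. The 10 genes described here are 5 luminal (Krt7, Krt8, Krt18, Krt19 and Krt23) and 5 basal ones (Krt5, Krt14, Krt15, Krt17 and Krt6a), taken as the rows with these symbols in a table of read counts with 30562 rows. Of these 10 genes, 7 had a row under their symbol and 6 passed edgeR's filter on low counts. Krt14, Krt15 and Krt19 had no row under their symbol or a RefSeq synonym of their own and were not analysed here, and Krt6a had a row but too few counts to be tested. Altogether, 51 rows carried a keratin symbol, of which 11 were tested.

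The counts came from 6 mammary tumors of inbred F344 rats, with 3 tumors of older rats (102, 107 and 116) and 3 of younger rats (157, 158 and 167). Older rats were obtained at 19 to 21 months of age and younger rats at 6 to 8 weeks, and each group was then housed for a further period before treatment. Every rat, in each group alike, received a 50 mg pellet of medroxyprogesterone acetate (MPA, a progestin, released over 90 days) under the skin, and a week later 65 mg per kg of 7,12-dimethylbenz[a]anthracene (DMBA, a carcinogen) by gavage. No untreated gland was among the samples, the older tumors were those with enough tissue, and each tumor came from a different rat.

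Totals ran from 3508571 to 6525830 counts per tumor, and 3 counts corresponded to 0.516 to 0.990 CPM, which covers counting error only. Casein genes took 0.599% to 14.7% of counts, without a split by age. CPM here are counts scaled by library total and TMM factor (edgeR), and a gene's CPM is compared between tumors, never with that of another gene, since no transcript lengths were used. The tumors carried epithelial markers: 8 of 9 such genes had a row, none was at 0 in all tumors, and their summed level was 1789 to 2004 CPM in older and 2120 to 2403 CPM in younger tumors. These sums did not overlap (exact permutation, two-sided p = 0.1, the lowest that 3 tumors against 3 can give). Their part in the keratin values was not tested beyond the scaling given below, and in bulk tissue fewer cells of a type and less RNA per cell cannot be told apart. Tumor 102 stood apart from the others, with a mean correlation to the other tumors of 0.83 across genes, compared with 0.87 to 0.90 for the rest.

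Keratin genes lie in 2 clusters, 1 of mostly type II genes and 1 of type I genes. Krt18, although a type I gene, lies at the end of the type II cluster beside Krt8, its usual partner, with 1 noncoding entry between them in RefSeq's assembly GRCr8. Krt5 and Krt6a are direct neighbours among the keratin genes of the same cluster. The RefSeq promoter table used here matched 4 of the 10 genes (Krt5, Krt8, Krt18 and Krt23). Stretches of 90 bases are shown for these for reasons described further on. Krt8 and Krt18 varied separately despite being neighbours, and Krt5 and Krt23 correlated negatively across tumors, with tumors 102 and 157 at the ends. Capitals mark letters matching 1 of 5 short motifs chosen with these sequences in view (TATAAA, the TATA box; ATAAA, contained in it; GGGCGG, a GC box; CCAAT; and TGANTCA, the AP-1 motif), searched on both strands in the 120 bases before the start of the gene model.
Krt5, chr7:134730570-134730659, minus strand: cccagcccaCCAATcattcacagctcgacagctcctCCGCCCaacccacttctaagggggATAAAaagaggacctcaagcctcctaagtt
Krt8, chr7:135010420-135010509, minus strand: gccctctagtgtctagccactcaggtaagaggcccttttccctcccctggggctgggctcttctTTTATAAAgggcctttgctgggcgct
Krt18, chr7:135036048-135036137, plus strand: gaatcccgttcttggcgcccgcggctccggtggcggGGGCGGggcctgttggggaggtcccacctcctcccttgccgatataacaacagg
Krt23, chr10:84946930-84947019, minus strand: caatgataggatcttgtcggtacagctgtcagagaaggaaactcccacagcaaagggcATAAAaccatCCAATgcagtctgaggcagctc

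The stretches run 5′ to 3′ on the gene's strand in GRCr8. Each was placed to hold the matches of its gene. That of Krt8 ends 81 bases before the start of its model, which begins with ATG, and that of Krt18 ends 31 bases before the start. Those of Krt5 and Krt23 end at the start. Shares of promoters are for the same window of 120 bases before the start, not for the 90 bases shown. Krt8 alone among the 4 held TATAAA, found in 6.66% of 33469 promoters. Krt5 and Krt23 held ATAAA (21.5% of promoters) at 30 and 32 bases before the start, and each also held CCAAT (19.9%). Krt18 held GGGCGG (23.7%) and neither TATAAA nor ATAAA, and Krt5 held the same box on the opposite strand. TGANTCA (3.01%) was found in none of the 4. A match describes the letters only and is no evidence of binding.

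**Figure D1:**
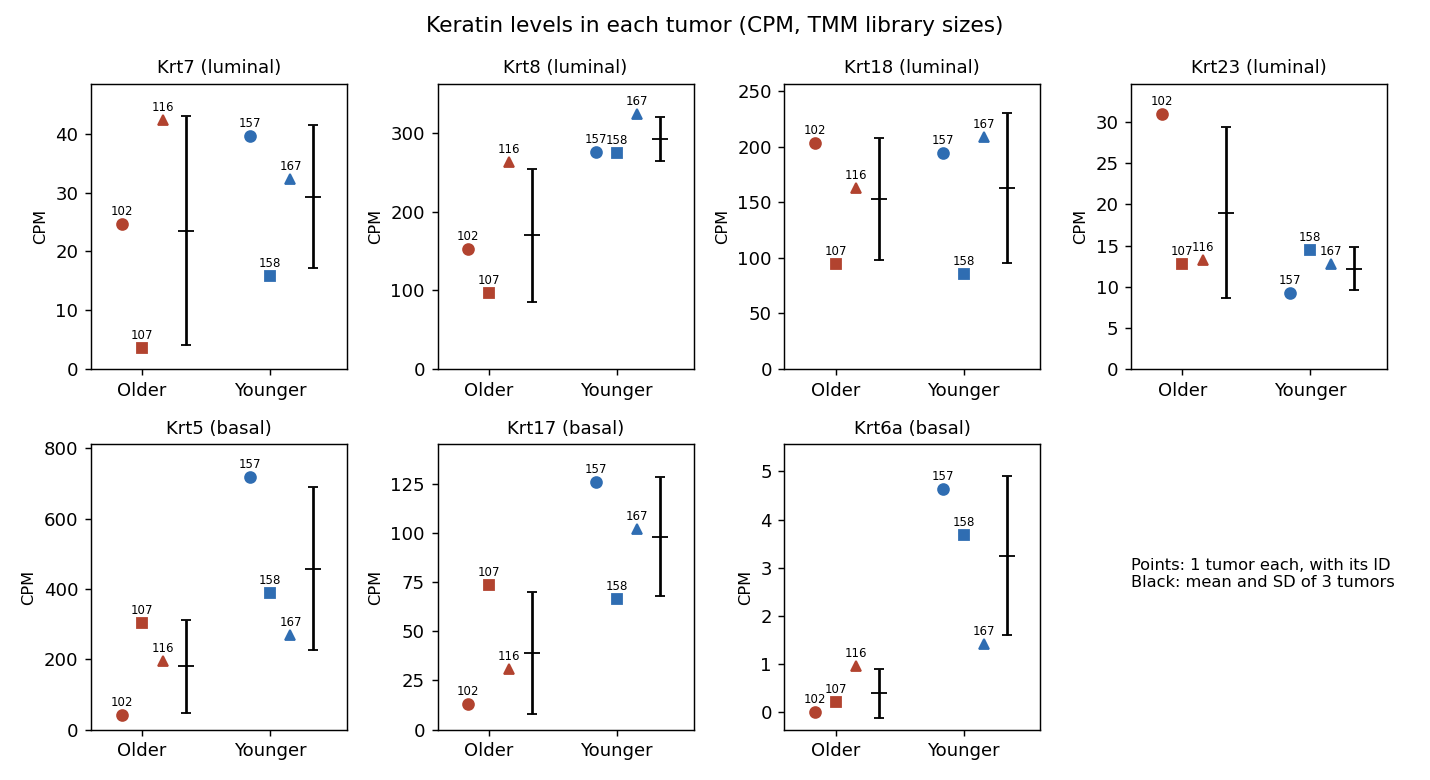
Level of each keratin with a row, in CPM with TMM library sizes, for the 3 older and 3 younger tumors, each point being 1 tumor with its ID and black marks giving the mean and SD. The Krt8 and Krt6a points of the age groups do not overlap, and tumor 102 is lowest for Krt5, Krt17 and Krt6a and highest for Krt23.

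Luminal keratins were compared between older and younger tumors first. Krt8 was lower in all older tumors, and Krt18 covered similar ranges in the age groups. Krt7 overlapped between them but was spread more widely in older tumors, and Krt23 was high in a single older tumor. None of the 4 tested luminal keratins passed an adjusted p of 0.05 in edgeR's quasi-likelihood test, and the same test passed 0 of 14060 genes, a background of 0%.

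Krt8 encodes the type II keratin of simple epithelia, present in nearly all luminal cells. Its levels were 152 CPM (tumor 102), 96.8 CPM (107) and 263 CPM (116) in older tumors. In younger tumors they were 276 CPM (157), 275 CPM (158) and 324 CPM (167). The younger tumors lay close together and all above the older ones, of which tumor 116 was the nearest. Means were 170 ± 84.6 CPM (SD, n = 3) and 292 ± 28.0 CPM (SD, n = 3). Its log2 fold change was -0.78 (standard error, SE, 0.37, 95% interval -1.64 to 0.09, adjusted p = 0.652, edgeR). It was -0.49 without tumor 107 and -1.24 without tumor 116. Krt8 was the single tested member, 1 of 6, whose age groups did not overlap, and 5.58% of all tested genes were lower in every older tumor in this way.

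Krt18 encodes the type I partner of Krt8. It reached 203, 94.6 and 163 CPM in older tumors 102, 107 and 116, and 194, 85.7 and 209 CPM in younger tumors 157, 158 and 167. The lowest value of each age group was close to the other's, and so was the highest, so that the groups overlapped fully. This gave a log2 fold change of -0.09 (standard error 0.41, 95% interval -1.05 to 0.88, adjusted p = 0.980, edgeR). RefSeq lists 7 near copies of Krt18, 6 of them pseudogenes, and 1 of Krt8, so reads of these genes may have been split or dropped in counting.

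Krt7 encodes a second type II keratin of ductal epithelium. Levels were 24.7, 3.51 and 42.4 CPM in older tumors 102, 107 and 116, against 39.7, 15.8 and 32.3 CPM in younger tumors 157, 158 and 167. Tumor 107 had the lowest value, from 16 counts, and tumor 116 of the same group the highest, a range of 12.1-fold. The log2 fold change of -0.31 (standard error 0.75, 95% interval -2.05 to 1.43, adjusted p = 0.956, edgeR) became 0.21 without tumor 107.

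Krt23 encodes a type I keratin. It was the single tested member with a higher mean in older tumors, at 31.0, 12.7 and 13.2 CPM in tumors 102, 107 and 116 and 9.28, 14.4 and 12.8 CPM in tumors 157, 158 and 167. Tumor 102 was above all others, and the other older tumors lay within the younger range. The log2 fold change was 0.63 (standard error 0.44, 95% interval -0.39 to 1.64, adjusted p = 0.800, edgeR), and 0.08 without tumor 102.

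Basal keratins showed larger differences, all in the direction of lower levels in older tumors, although neither of the 2 tested genes passed the threshold. Their median log2 fold change was -1.34, while that of the 4 luminal keratins was -0.20 and that of all genes tested 0.00. The luminal median turned to 0.19 without tumor 107 and to 0.01 without tumor 157, and that of Krt5 and Krt17 was -2.05 without tumor 107 and -0.90 without tumor 102. Of the 6 tested members 5 had a negative fold change, compared with 50.4% of all tested genes. None of the 6 had an unadjusted p under 0.05, where 3.26% of all tested genes were lower at that level.

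Krt5 encodes the type II keratin of basal cells and is one of the genes used to define basal-like breast cancer. In older tumors its levels were 40.6 CPM (102), 304 CPM (107) and 195 CPM (116). In younger tumors they were 717 CPM (157), 388 CPM (158) and 268 CPM (167). Tumor 102 was far below all others and tumor 157 far above, and older tumor 107 exceeded younger tumor 167. Means were 180 ± 132 CPM (SD, n = 3) in older and 458 ± 232 CPM (SD, n = 3) in younger tumors. The log2 fold change was -1.35 (standard error 0.69, 95% interval -2.94 to 0.25, adjusted p = 0.686, edgeR). It was -0.87 without tumor 157, -0.88 without tumor 102 and -1.95 without tumor 107, so that single tumors moved it in each direction.

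Krt17 encodes a type I keratin of basal cells that is also induced in wounded and proliferating epithelium. It reached 12.9, 73.5 and 30.6 CPM in older tumors 102, 107 and 116 and 126, 66.5 and 102 CPM in younger tumors 157, 158 and 167. As with Krt5, tumor 102 was lowest and 157 highest, and tumor 107 entered the younger range, here by exceeding tumor 158. Its log2 fold change was -1.33 (standard error 0.58, 95% interval -2.67 to 0.02, adjusted p = 0.594, edgeR), the smallest p of the tested members (unadjusted p = 0.0528). It was -2.16 without tumor 107 and -0.92 without tumor 102.

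Krt6a encodes a type II keratin of activated and stratified epithelium. Older tumors held 0, 1 and 5 counts (102, 107 and 116) and younger tumors 27, 21 and 6 (157, 158 and 167). These correspond to 0, 0.219 and 0.968 CPM against 4.64, 3.69 and 1.42 CPM. The groups did not overlap (exact permutation, two-sided p = 0.1), but the older tumors and tumor 167 lay near the counting limit. The summed counts were 6 in older and 54 in younger tumors, and per TMM-scaled library size the ratio of older to younger was 0.137 with a 95% interval of 0.0481 to 0.318 for counting error alone, which leaves out the spread between tumors. When every gene with at least 1 count was tested, the log2 fold change was -2.85 (adjusted p = 0.388, edgeR). Of the 6 counts in older tumors 5 were in tumor 116, and in the fits with 1 tumor left out in which Krt6a passed the filter, the value ran from -4.42 without tumor 116 to -2.39 without tumor 102. RefSeq lists Krt6a also as a synonym of Krt6c, and 2 pseudogenes of Krt6a, so the row may hold reads of these copies.

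**Figure D2:**
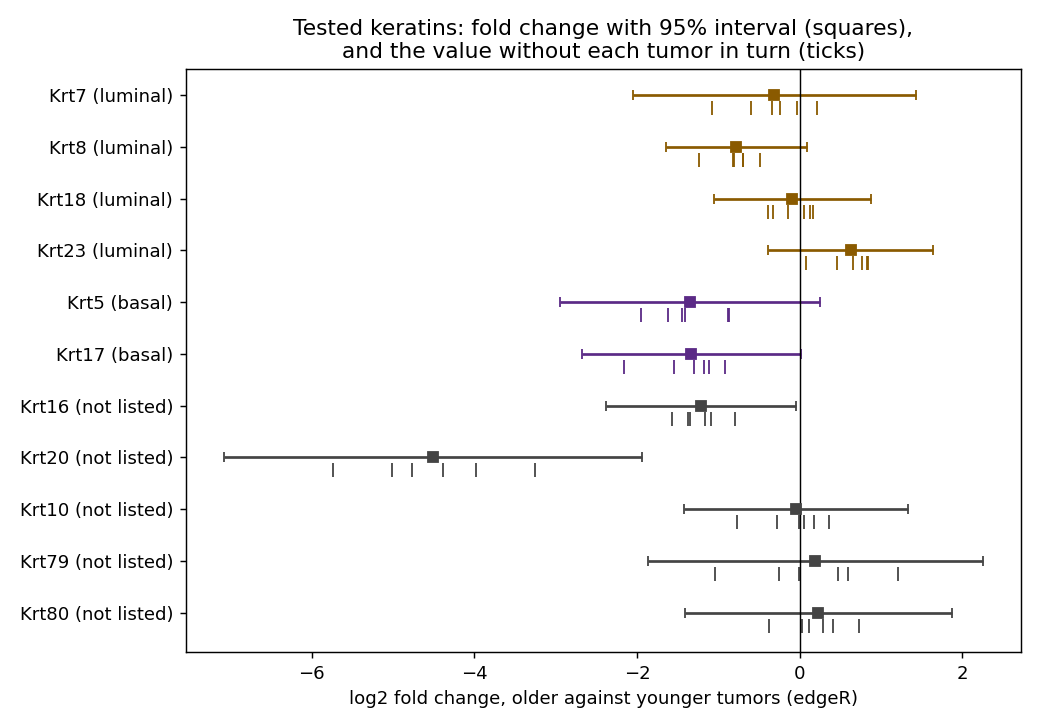
Log2 fold change of older against younger tumors for the 11 tested keratins (edgeR), with squares and bars for the value and its 95% interval and ticks below for the value when each tumor is left out. Krt8, Krt5, Krt17, Krt16 and Krt20 lie to the left of 0 in every fit shown, and Krt23 lies to the right of it. Krt7, Krt18, Krt10, Krt79 and Krt80 fall on either side of 0, and Krt20 lies farthest to the left at -4.51.

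Members also differed in how much they varied among tumors, whatever the age group. The SD of log2 CPM over the 6 tumors (prior count of 2) was 1.39 for Krt5, 1.29 for Krt7 and 1.22 for Krt17, above the SD of more than 92% of tested genes (percentiles 95.3, 93.8 and 92.4). By contrast, Krt8, Krt18 and Krt23 had SDs of 0.67, 0.58 and 0.57, with percentiles of 70.8, 63.5 and 62.9, and the median of all tested genes was 0.45. The highest CPM of Krt5 was 17.7 times its lowest, whereas for Krt18 this ratio was 2.44. The age groups held 52.6% of the variance of Krt17, 52.5% of that of Krt8 and 41.9% of that of Krt5, against 0.242% for Krt18 and a median of 15.0% over all tested genes. Thus Krt8 and Krt18, which usually pair, were far apart among the members in the share of variance that followed age.

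Ratios of counts within a tumor do not depend on how libraries are scaled. The log2 ratio of Krt8 to Krt18 was -0.42, 0.03 and 0.69 in older tumors 102, 107 and 116 and 0.51, 1.68 and 0.63 in younger tumors 157, 158 and 167. Across tumors this ratio spanned 4.29-fold, from the lowest in tumor 102 to the highest in tumor 158, and the age groups overlapped (means 0.10 ± 0.55 and 0.94 ± 0.65, SD and n = 3 for both; exact permutation, two-sided p = 0.300). A ratio of Krt7 to Krt8 spanned 4.49-fold, with tumors 107 (-4.78) and 158 (-4.12) lowest. These are the tumors with the least Krt18 as well.

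Krt5 and Krt17 kept a closer ratio, with log2 values of 1.66, 2.05 and 2.67 in older and 2.50, 2.54 and 1.40 in younger tumors, a span of 2.41-fold. Krt5 against Krt8, a basal against a luminal type II keratin, spanned 11.8-fold, with log2 ratios of -1.90 (102), 1.65 (107) and -0.43 (116) in older tumors. The younger tumors, at 1.37 (157), 0.50 (158) and -0.27 (167), all lay inside the older range (exact permutation, two-sided p = 0.600). By this ratio, older tumors included the tumor richest in basal relative to luminal type II keratin, 107, and the poorest, 102.

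**Figure D3:**
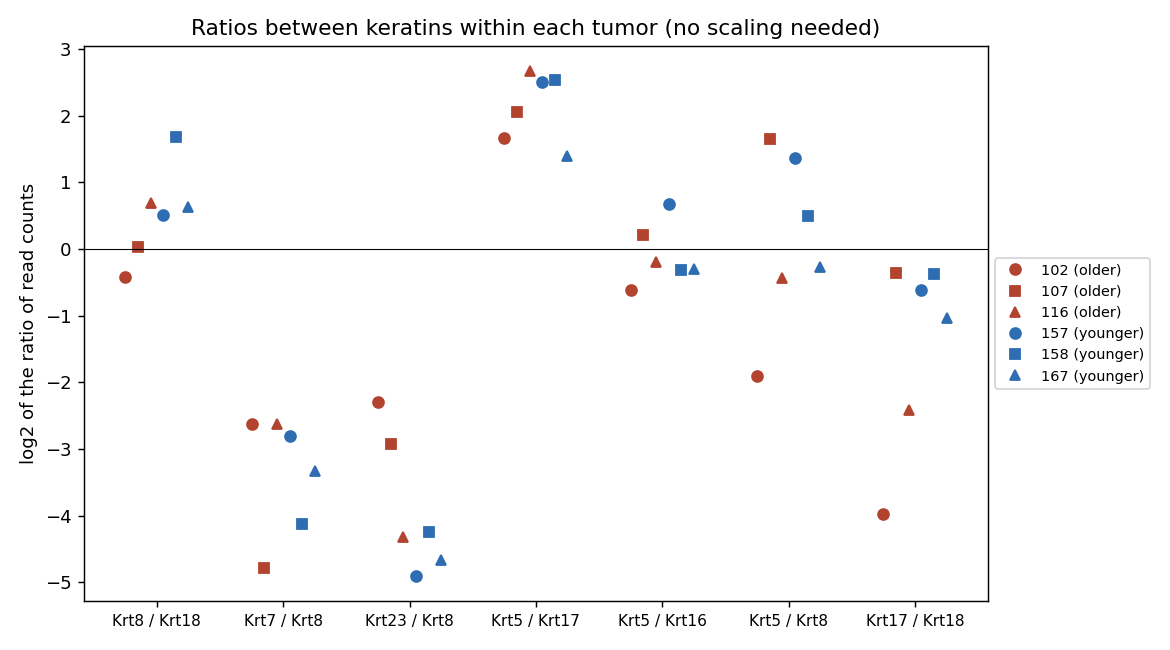
Log2 ratio of read counts between pairs of keratins within each tumor, with colour for the age group and marker for the tumor. Ratios of Krt5 to Krt17 and to Krt16 lie within about 1.3 log2 units, while those of Krt5 to Krt8 and Krt17 to Krt18 spread over more than 3.5.

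Mean log2 CPM was also taken over the 4 luminal and over the 3 basal members with a row, each gene counting equally. The luminal level was 6.14, 4.72 and 6.14 in older tumors 102, 107 and 116 and 6.08, 5.61 and 6.20 in younger tumors 157, 158 and 167. Tumor 107 was thus lowest, followed by tumor 158. The basal level was 2.61, 4.61 and 4.35 in older tumors and 6.27, 5.57 and 5.21 in younger ones, without overlap. Krt6a, near the counting limit, has full weight in this level, and the summed CPM of the same 3 genes did overlap, at 53.4, 378 and 226 CPM in older and 848, 458 and 371 CPM in younger tumors. The luminal minus the basal level, whose absolute size depends on transcript length, was 3.52, 0.11 and 1.80 in older and -0.19, 0.04 and 0.99 in younger tumors. By this measure younger tumors 157 and 158 were the most basal, ahead of older tumor 107, unlike in the ratio of Krt5 to Krt8. The luminal minus basal level differed by 1.53 between the means (1.81 ± 1.71 and 0.28 ± 0.63, SD, n = 3 each), less than the SD of the older tumors, and by 0.68 without tumor 102. As the members were chosen with results known, no p is given for these levels.

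**Figure D4:**
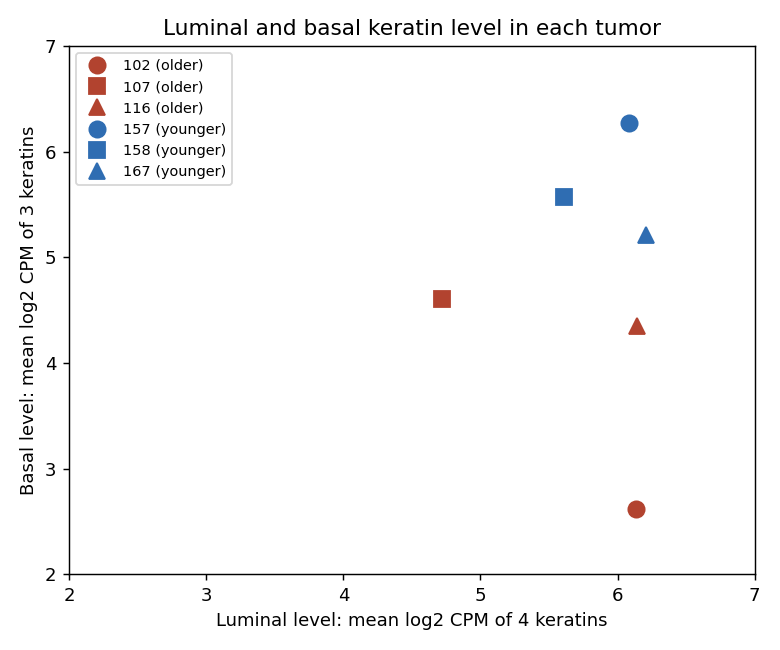
Mean log2 CPM of the 4 luminal keratins (horizontal axis) against that of the 3 basal keratins (vertical axis), 1 point per tumor. All younger tumors have basal levels of 5.21 or more, tumor 102 has a basal level of 2.61 at a luminal level of 6.14, and tumor 107 has the lowest luminal level at 4.72.

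Correlations over the 6 tumors are given as a description, as all values share their libraries. Log2 CPM of Krt5 correlated with that of Krt17 at r = 0.93 and with Krt6a at 0.82, and negatively with Krt23 at -0.95. Tumors 102 and 157 were at opposite ends for Krt5 and Krt23. In the other tumors Krt23 lay between 12.7 and 14.4 CPM, and tumor 158 was second highest for each of these genes. Krt8 correlated with Krt7 at 0.81 and with Krt6a at 0.76, but with Krt18 and with Krt5 at 0.37 each. Among 11831 tested genes with a mean of at least 5 CPM, Krt17 held rank 202 in likeness to Krt5, whereas Krt18 held rank 3183 in likeness to Krt8. The genes most like Krt8 were Stbd1 (r = 0.991), Csnk1g2 (0.989), Ippk (0.988), Spsb2 (0.987) and Agtr1a (0.986), and those most like Krt5 were Ascc2 (0.992), Col18a1 (0.991), Dnmt3b (0.990), Cep41 (0.989) and Tent4a (0.988). Krt5 was used for this search after it was seen that Krt14 had no row.

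Outside the listed members, 6 keratin rows had a mean of at least 1 CPM, and 5 of them were tested. Krt20, a type I keratin best known from intestine, urothelium and Merkel cells, had the largest difference of all tested keratins. Its levels were 1.32, 0.219 and 3.29 CPM in older tumors 102, 107 and 116, from 4, 1 and 17 counts. In younger tumors 157, 158 and 167 they were 24.9, 6.68 and 84.1 CPM, from 145, 38 and 354 counts. All younger tumors were above all older ones, and the younger tumors themselves lay far apart. The log2 fold change was -4.51 (standard error 1.11, 95% interval -7.08 to -1.94, adjusted p = 0.314, edgeR). DESeq2 called Krt20 (log2 fold change -4.56, adjusted p = 4.55e-04), as it did 2.47% of the genes for which it gave an adjusted p, but none of the 6 tested members, whose smallest adjusted p was 0.363 (Krt17).

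Krt16, a type I keratin of activated epithelium, followed Krt5 (r = 0.96). It reached 62.0, 264 and 222 CPM in older and 449, 485 and 331 CPM in younger tumors, again without overlap. Krt16 had a log2 fold change of -1.21 (SE 0.50, edgeR adjusted p = 0.569), and -0.80 without tumor 102. Since RefSeq gives Krt14 also as a synonym of Krt16, it is uncertain which of these genes the reads came from. The row was not counted as Krt14. Krt10, Krt79 and Krt80 had log2 fold changes of -0.05, 0.19 and 0.23 with adjusted p of 0.967 or more (edgeR), and each changed sign under at least 1 other setting. Krt28 was not tested, with 43 counts in tumor 107 and at most 6 in any other. The remaining 38 keratin rows were below 1 CPM on average, 15 of them at 0 in all tumors.

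Skin also carries basal keratins, and its markers were therefore examined. Of 9 stratified skin markers with a row, Krt2, Ivl and Sprr1a were at 0 in all tumors, Krt1 and Loricrin had at most 2 counts in any tumor, Dsg1 had 10 counts in tumor 102 and at most 1 elsewhere, and Sbsn had 5 to 28 counts. Krt10 and Lgals7 passed the filter. The summed level of the list was 13.2 to 59.6 CPM in older and 16.9 to 81.7 CPM in younger tumors. In tumor 167, the highest, Lgals7 alone made up 62.5 CPM of this sum. The part of skin in the keratin values was not tested.

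Contractile and adhesion genes of basal cells gave a view of the same compartment without keratins. Of 8 myoepithelial markers tested, 8 had a negative log2 fold change (median -0.49), as did 50.4% of all tested genes, but none passed the adjusted threshold. Their summed level was 917 CPM in tumor 102, 3229 CPM in 107 and 983 CPM in 116, against 3013, 2417 and 2208 CPM in tumors 157, 158 and 167. Older tumor 107 thus had the highest sum of all 6, while its Krt5 and Krt17 lay in the middle of the range. The list holds smooth muscle genes, and muscle markers were highest in the same tumor (Des at 208 CPM and summed skeletal muscle markers at 52.4 CPM). Their part in this sum was not tested. Cdh3, which encodes P-cadherin of basal cells, was lower in all older tumors (2.64, 23.0 and 14.7 CPM against 71.7, 52.9 and 23.5 CPM; log2 fold change -1.86, SE 0.70, edgeR adjusted p = 0.502). Itgb4, the integrin chain that anchors keratins to the basement membrane, had a log2 fold change of -0.42 (adjusted p = 0.842), which was -0.02 without tumor 157.

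Proteins that tie keratin filaments to cell junctions were next examined. Among 14 tested genes for desmosomal and plakin proteins, 11 had a negative fold change (median -0.48), against 50.4% of all tested genes. The summed level of the list overlapped, at 2272, 3262 and 1947 CPM in older and 3338, 2694 and 2916 CPM in younger tumors. Of the 14, 0 passed the adjusted threshold and 3 were lower in older tumors at an unadjusted p under 0.05, where 3.26% of all tested genes were. Pkp1, which encodes a desmosomal plaque protein of stratified and basal epithelium, was at 5.61, 1.10 and 2.52 CPM in older and 28.9, 15.5 and 7.84 CPM in younger tumors. All younger values were above all older ones (log2 fold change -2.54, SE 0.70, edgeR adjusted p = 0.343; 0.0205 with DESeq2). Dsp, which encodes desmoplakin, the main link from keratins to desmosomes, was at 23.4, 80.3 and 156 CPM against 516, 169 and 396 CPM. It too did not overlap (log2 fold change -2.05, SE 0.68, edgeR adjusted p = 0.427; 0.0627 with DESeq2), although tumors 116 and 158 were close.

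Of 10 luminal transcription factors, 8 had a negative fold change (median -0.27) and 2 were lower at an unadjusted p under 0.05, beside 50.4% and 3.26% of all tested genes. Foxa1, a pioneer factor of luminal cells, was at 24.7, 175 and 105 CPM in older and 443, 116 and 470 CPM in younger tumors (log2 fold change -1.75, adjusted p = 0.577, edgeR), with tumor 158 inside the older range. Spdef, a factor of secretory luminal cells, had a log2 fold change of -1.40 (adjusted p = 0.458). Among 8 basal factors 6 had a negative fold change (median -0.35), again beside 50.4% of all tested genes, and Klf5, known for a role in basal epithelium, had a log2 fold change of -0.83 (adjusted p = 0.483) without overlap. Egr2, a zinc finger factor, had a log2 fold change of 0.80 (adjusted p = 0.760), which was 0.37 without tumor 116. Other intermediate filament genes (8 tested) had a median of -0.33, and Lmna, which encodes lamins A and C of the nuclear envelope, had a log2 fold change of -0.47 (adjusted p = 0.715) and of -0.30 without tumor 157. The muscle filament gene Des was high in tumor 107 (208 CPM against 2.85 to 18.5 CPM elsewhere), and its log2 fold change of 3.43 (adjusted p = 0.508, edgeR; 0.0498 with DESeq2) was 0.63 without that tumor.

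Epithelial content was set beside the keratins because the marker sums differed by age. Of 8 tested epithelial markers, 6 had a negative log2 fold change and 2 a positive one (median -0.21), beside 50.4% negative among all tested genes. Among the 8, 2 were lower in every older tumor, where 5.58% of all tested genes were, and none had an unadjusted p under 0.05 (edgeR). The 2 genes of smallest p are given here. Epcam, an adhesion protein of epithelial cells, was at 297, 290 and 339 CPM in older and 387, 459 and 480 CPM in younger tumors (log2 fold change -0.52, SE 0.24, edgeR adjusted p = 0.628). Cldn4, a tight junction protein, was lower in all older tumors too (log2 fold change -0.40, adjusted p = 0.729). With libraries scaled on the summed epithelial markers, which raised the median log2 fold change of all genes to 0.23, the median of the luminal keratins was -0.02 and that of the basal keratins -1.08. Krt8 then had a log2 fold change of -0.56, Krt5 of -1.09 and Krt17 of -1.08, and Krt18 changed sign to 0.10, none past the threshold. Under the same scaling Epcam was at -0.29 and Cldn4 at -0.18, but both are part of the sum used for scaling. Itgb4 and Lmna, which are not, were at -0.21 and -0.23.

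Markers of immune and fat cells had higher sums in older tumors. Summed macrophage markers were 169 to 307 CPM in older and 80.0 to 131 CPM in younger tumors, and T cell markers were 15.5 to 83.2 CPM and 4.40 to 8.42 CPM. Adipocyte markers, at 19.4 to 169 CPM and 5.94 to 17.5 CPM, were highest in tumor 102, the tumor with the least Krt5 and Krt17. Fibroblast markers overlapped, at 132 to 1070 CPM and 121 to 840 CPM, and were also highest in tumor 102, and endothelial markers overlapped at 101 to 372 CPM and 61.5 to 319 CPM. Skeletal muscle markers, at 5.81 to 52.4 CPM and 15.9 to 24.8 CPM, were highest in tumor 107, as Des was. None of these genes was past the threshold in edgeR's test. At an unadjusted p under 0.05, 4 of 6 macrophage and 2 of 2 tested T cell markers were higher in older tumors, beside 5.28% of all tested genes. The same held for 1 of 2 tested skeletal muscle markers, but for 0 of 3 adipocyte, 0 of 6 fibroblast and 0 of 5 endothelial markers. DESeq2 called the T cell marker Cd8a (adjusted p = 0.0122, named after its value was seen), which was at 72.0 CPM in tumor 107 and 9.90 and 6.58 CPM in the other older tumors. The part of these cells in the keratin values was not tested.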

How the data were processed

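Bulk RNA-seq of 6 rat mammary tumors was used, 3 older and 3 younger. The authors trimmed reads with Trimmomatic 0.38, aligned them with STAR 2.7.9a, marked duplicates with Picard 2.18.12 and deposited raw counts per gene from HTSeq 0.13.5, and the submitters' processing notes name build mRatBN7.2. The annotation, the strand setting and the treatment of marked duplicates are not given in the sources used here, so that antisense reads and reads of near copies cannot be told apart. The labels name polyA RNA where the protocol describes depletion of ribosomal RNA. Columns were matched to tumors by tumor ID.

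Testing used edgeR 4.0.16 under R 4.3.3 (filterByExpr, 14060 of 30562 rows tested; TMM; quasi-likelihood test without covariates; Benjamini-Hochberg adjustment over all tested genes; threshold 0.05), with DESeq2 1.42.0 and limma 3.58.1 as alternatives. Standard errors were calculated back from the F statistic. The script was tested on simulated data. The members and lists were chosen with earlier results of these data known. Named genes are the members, other keratins with a mean of at least 1 CPM, the 2 genes of smallest p in each list (lists of skin and of non-epithelial cells are given as sums, with single genes of them named after their values were seen) and the 5 genes most like Krt8 and Krt5. Rows without a name, 4367 in number, were kept in the tests. Of 25882 names, 23229 are symbols in RefSeq's GRCr8 gene list. Alternatives covered scaling, filter, test, prior count and each tumor left out.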

Additional observations from a re-analysis of the deposited data

How the results depend on the processing

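No paired analysis was possible because no replicate number is shared between the age groups. The count of genes past the threshold, 0 with edgeR (1202 at an unadjusted p under 0.05), was 346 with DESeq2's Wald test and 1 when all genes with at least 1 count were tested, and 0 in the other 6 settings and without each tumor in turn; the cause was not tested. Luminal and basal keratins past the threshold numbered 0 in every setting run. With each tumor left out, the median log2 fold change of luminal keratins ranged from -0.61 to 0.19 (0.19 without older tumor 107, 0.01 without younger tumor 157), that of basal keratins from -2.16 (without 107) to -0.92 (without 102), where Krt6a passed the filter as well (Krt5 and Krt17 alone, run after seeing the data, -2.05 and -0.90), and the luminal minus basal level from 0.68 (without older tumor 102) to 2.38 (without 107). Log2 fold changes ranged from -1.24 to -0.49 for Krt8, from -1.95 to -0.87 for Krt5, from -5.74 to -3.25 for Krt20, and, with a change of sign, from -1.08 to 0.21 for Krt7, from -0.39 to 0.17 for Krt18, from -0.77 to 0.36 for Krt10, from -1.04 to 1.21 for Krt79 and from -0.37 to 0.73 for Krt80. Scaling on epithelial markers turned Krt18 to 0.10 and Krt10 to 0.20, and limma-voom turned Krt80 to -0.16. The difference in the log2 ratio of Krt8 to Krt18, run after seeing the data, ranged from -1.13 to -0.47 and that of Krt5 to Krt8 from -1.70 to 0.08 (without 102). Depth limits Krt6a and the rarer keratins, near 3 counts in several tumors.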
